A study of Mus musculus with 17 samples.

Results

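Collagens, laminins and the proteins that join them were examined in bulk RNA-seq of isolated mouse islets. Members were the protein-coding genes whose symbol starts as a collagen chain (Col, a number, a, a number) or a laminin chain (Lama, Lamb or Lamc and a number), with *Nid1*, *Nid2*, *Hspg2* and *Agrn* added. This rule took 60 genes out of the 51498 identifiers with a symbol in one table and the 48827 in the other. *Col4a3bp* matched only through its name, since it encodes a ceramide transfer protein and no matrix protein, and it was kept apart, which left 59 members. After a filter on low counts, 50 members were tested in the R192H table and 51 in the βiKO table.

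All 17 mice were male. The R192H table held wildtype C57BL6/N mice and littermates homozygous for a *Pax4* R200H knock-in, which corresponds to human PAX4 R192H and is named *Pax4* R192H here. Of each genotype, 3 mice were fed a standard chow diet (SCD) and killed at 12 weeks, and 3 were fed a high-fat diet (HFD) for 4 weeks and killed at 16 weeks, so that diet and age cannot be told apart. The βiKO table held 2 control mice with floxed *Pax4* alleles and no Cre, and 3 *Pax4* βiKO mice with the same alleles and Pdx1-CreERT2, all given tamoxifen between weeks 7 and 9 of life, then HFD for 8 weeks until they were killed at 20 weeks. The Pdx1 promoter is active in β cells and in some other pancreatic cells, and the presence of Cre cannot be told apart from the loss of *Pax4*. The labels name each sample a biological replicate of its group. *Pax4* was listed at 0 counts in every mouse of both tables, and its level therefore gave no check of genotype.

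Collagens are trimers of α chains that are folded and hydroxylated in the endoplasmic reticulum and then secreted. Type IV collagen forms the sheet of the basement membrane, and laminins, each made of an α, a β and a γ chain, form a second sheet that binds integrins and dystroglycan on cells. Nidogens and the proteoglycans perlecan and agrin join these sheets. In the islet, endothelial cells lay down much of the basement membrane that β cells touch. Fibrillar collagens and the common type VI chains come mostly from fibroblasts, stellate cells and pericytes of the capsule and vessels. Which cells made each member here was not tested.

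Levels are given as CPM, counts relative to the TMM-scaled library size, computed for each table on its own. β cell markers summed higher than any other marker list in every library, at 44400 to 110000 CPM for 8 genes in the R192H table. Markers of other cells that an islet preparation can hold were also found there, at 104 to 294 CPM in sum for 12 mesenchymal genes and 200 to 258 for 9 endothelial genes. Library totals ranged from 24268157 to 42679645 counts over both tables.

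A pair of SCD-fed mice and 1 HFD-fed mouse stood apart, and they touch most results below. In SCD wildtype replicate 2, 27 of the 50 tested members (54%) lay over 2 times the mean of the other SCD wildtype mice, against 11.7% of all tested genes. Its median fold over those mice was 2.41 for members and 0.995 for all genes. SCD R192H replicate 3 stood in the same way over its group, with 18 of 50 members (36%) above 2 times and a median fold of 1.62, against 11.5% of all genes. Mesenchymal markers summed to 294 CPM in SCD wildtype replicate 2 and to 111 and 135 in its group, and to 184 CPM in SCD R192H replicate 3 and to 116 and 123 in its group. In HFD wildtype replicate 1, 9 of 50 members (18%) lay above 2 times, against 12.8% of all genes. Its β cell markers summed to 64900 CPM against 91000 and 93300 in its group, and its α cell markers to 6960 against 4130 and 4210. Acinar markers were high in single mice too, at 86900 CPM in HFD R192H replicate 1 against 31200 and 32000 in its group, and in the βiKO table at 92000 in 1 control against 21000 in the other and at 71400 in 1 βiKO mouse against 14600 and 19200. The part of these cells in the results was not tested. In bulk libraries, fewer cells of a type and less RNA per cell cannot be told apart.

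The excess was uneven over the members. Among the largest were those of *Col5a1* (6.27 times the mean of the other SCD wildtype mice), *Lamc3* (5.6), *Col23a1* (5.39), *Col1a1* (5.29) and *Col6a2* (4.85) in SCD wildtype replicate 2. *Col4a1* (1.29), *Lama4* (1.3) and *Lamc1* (1.33) lay little above the other mice in the same library, and *Nid2* (0.945), *Col6a6* (0.76), *Col13a1* (0.705), *Col27a1* (0.649) and *Col26a1* (0.374) lay below them.

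**Figure D1:**
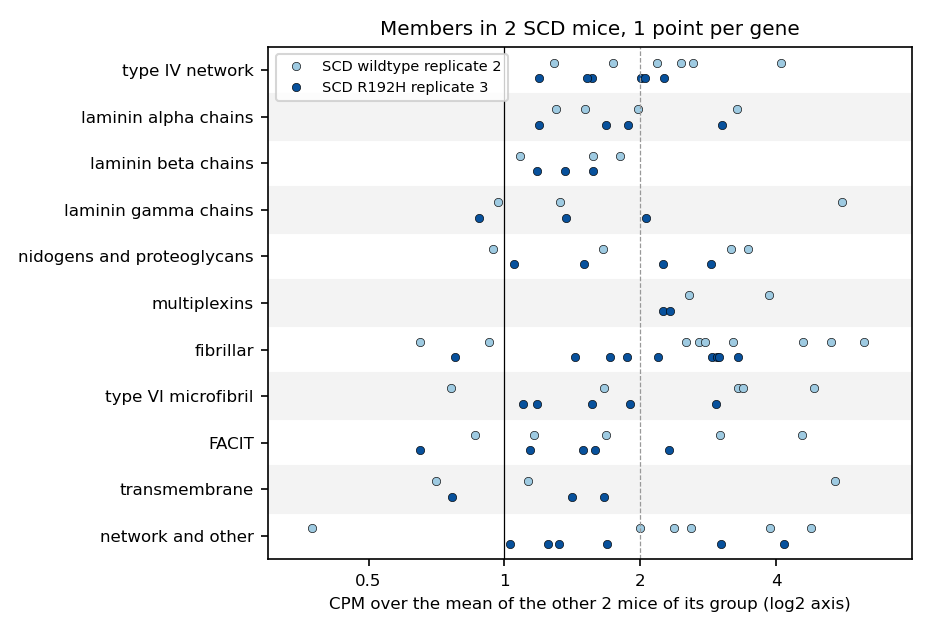
Tested members in SCD wildtype replicate 2 (light) and SCD R192H replicate 3 (dark), each point 1 gene, as CPM over the mean of the other 2 mice of the group on a log2 axis, by role; the solid line marks 1 and the dashed line 2. Most fibrillar and type VI chains lie above 2 in the wildtype mouse, up to 6.27 for Col5a1, while Col6a6, Col13a1 and Col27a1 lie under 1.

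Type IV collagen was the most abundant member per length. *Col4a1* ranked highest of all members in each of the 6 groups when CPM was divided by the kilobases of exon sequence (CPM per kb). It stood at 13.4 ± 1.28 CPM per kb (SD, n = 3) in HFD wildtype mice, which was 28% of the sum over members, and at 10.7 ± 0.378 (SD, n = 2) in controls, which was 16.4%. *Col4a2*, its partner in the common trimer, stood at 4.41 ± 0.826 and 4.22 ± 0.43 CPM per kb in those groups. Over the 12 mice of the R192H table, the ratio of *Col4a2* to *Col4a1* per kb ran from 0.264 to 0.446, and it ran from 0.357 to 0.434 in the βiKO table. The kidney and other special type IV chains were low, and *Col4a5* ran from 0.004 to 0.0315 of *Col4a1* per kb in the R192H table.

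*Col4a1* (chr8:11198423-11312826, minus strand) and *Col4a2* (chr8:11312805-11449287, plus strand) are transcribed away from each other from overlapping starts, as the annotation of GRCm38 gives them. The promoter windows of the pair, which span each RefSeq start in GRCm38.p6, are shown because no other windows found for members overlap. Each is written 5′ to 3′ on its own strand, *Col4a1* at chr8:11312777-11313076 on the minus strand and *Col4a2* at chr8:11312555-11312854 on the plus strand. The capitals mark the 78 bases that both windows hold, chr8:11312777-11312854, which read as reverse complements.
Col4a1: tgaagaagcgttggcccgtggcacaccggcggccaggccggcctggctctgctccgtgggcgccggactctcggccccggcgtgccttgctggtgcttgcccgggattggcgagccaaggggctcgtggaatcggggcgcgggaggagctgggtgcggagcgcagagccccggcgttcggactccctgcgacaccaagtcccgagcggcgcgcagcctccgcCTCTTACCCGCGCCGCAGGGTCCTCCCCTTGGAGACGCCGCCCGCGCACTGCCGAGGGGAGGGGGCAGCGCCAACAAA
Col4a2: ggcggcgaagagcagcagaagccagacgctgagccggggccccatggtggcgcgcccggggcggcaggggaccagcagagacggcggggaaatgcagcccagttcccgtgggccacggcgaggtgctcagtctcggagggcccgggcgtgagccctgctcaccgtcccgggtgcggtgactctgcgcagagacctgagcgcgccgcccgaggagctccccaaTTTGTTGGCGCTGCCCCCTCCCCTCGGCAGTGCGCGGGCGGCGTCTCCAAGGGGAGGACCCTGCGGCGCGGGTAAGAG

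G and C made up 74.0% of the *Col4a1* window and 73.7% of the *Col4a2* window. A GC box (GGGCGG, either strand) occurs in both windows, and in the shared bases, against 35.7% of all 32851 RefSeq windows of this length. A CCAAT box (CCAAT, either strand) occurs in both windows too, against 37.4% of all windows, but not within the shared bases. No TATA box (TATAAA, either strand) occurs in either, against 13.6% of all windows. Windows were found for 43 of the 59 members, and those of the X-linked pair *Col4a5* and *Col4a6* lie 842 bases apart. *Col4a3* and *Col4a4* are also transcribed away from each other on chromosome 1, from 82586921 and 82586849, but no pair of windows was found for them. Whether the counting used the strand of reads is not given in the sources used here, so reads from the shared start of *Col4a1* and *Col4a2* may be split uncertainly.

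In the values below, a lack of overlap between groups is a description, and it was common over all genes. R192H mice on HFD lay above all HFD-fed wildtype mice in 13.0% of genes and under them in 9.89%, and above all SCD-fed R192H mice in 21.3% and under them in 20.6%. HFD-fed wildtype mice lay above all SCD-fed ones in 8.47% and under them in 9.46%, and βiKO mice above both controls in 15.9% and under them in 16.7%.

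*Col4a1* stood at 96.2, 123 and 94.6 CPM in wildtype and 88.2, 87.8 and 105 in R192H on SCD, and 89.5, 103 and 108 in wildtype and 119, 163 and 112 in R192H on HFD. Every HFD-fed R192H mouse lay above every HFD-fed wildtype mouse and every SCD-fed R192H mouse. *Col4a2* stood at 22.5, 42.3 and 26.1 CPM in wildtype and 27.7, 23.3 and 39.8 in R192H on SCD, and 35.4, 25 and 27.2 in wildtype and 39.1, 40.5 and 33.5 in R192H on HFD, where the HFD-fed R192H mice overlapped with the HFD-fed wildtype mice. In the βiKO table, *Col4a1* stood at 81.9 and 77.9 CPM in controls and 84.6, 99.8 and 89.8 in βiKO mice. *Col4a2* stood at 25.9 and 30 CPM in controls and 31.3, 32.8 and 30.3 in βiKO mice, and for neither chain did the groups overlap there.

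Among laminin chains, *Lamc1*, the γ chain of most laminins, was the highest per length. It stood at 19.1, 25.7 and 19.5 CPM in wildtype and 18.7, 19 and 25.8 in R192H on SCD, and 25.7, 24.2 and 19.7 in wildtype and 29.8, 26.9 and 25.9 in R192H on HFD. All HFD-fed R192H mice lay above the HFD-fed wildtype mice, by a small margin. Its level was 42.3 and 38.1 CPM in controls and 36.8, 34.4 and 34 in βiKO mice, so the βiKO mice lay under the controls.

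*Lama5* and *Lama4* encode the α chains of the laminins of vessels. *Lama5* stood at 3.6, 8.5 and 4.97 CPM in wildtype and 5.01, 3.82 and 8.28 in R192H on SCD, and 7.36, 4.84 and 5.03 in wildtype and 10.8, 9.57 and 12.4 in R192H on HFD. The HFD-fed R192H mice were the highest of the table, and none overlapped with another group. *Lama5* was also higher in each βiKO mouse than in the controls, at 9.22 and 8.19 CPM in controls and 13.9, 11.7 and 10.4 in βiKO mice. *Lama4* stood at 10.7, 12.5 and 8.5 CPM in wildtype and 7.83, 8.63 and 9.81 in R192H on SCD, and 9.68, 8.15 and 7.21 in wildtype and 8.48, 11.6 and 8.79 in R192H on HFD, and at 13.1 and 13 CPM in controls and 13.1, 16.2 and 14.9 in βiKO mice. Its groups overlapped in the R192H table, and every βiKO mouse lay above the controls, the lowest by less than the digits printed.

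*Lamb1* and *Lamb2* encode the β chains. *Lamb1* stood at 10.7, 15.6 and 9.17 CPM in wildtype and 10.3, 8.74 and 11.2 in R192H on SCD, and 11.4, 8.26 and 9.56 in wildtype and 7.69, 14.2 and 10.4 in R192H on HFD, and at 12.2 and 11.5 CPM in controls and 12.2, 15 and 15.8 in βiKO mice. *Lamb2* stood at 7.34, 16.1 and 10.6 CPM in wildtype and 9.1, 9.69 and 12.8 in R192H on SCD, and 11.3, 10 and 9.74 in wildtype and 11.2, 12.4 and 9.47 in R192H on HFD, and at 14.8 and 14.7 CPM in controls and 13.2, 17.1 and 20.5 in βiKO mice. For both chains all groups of the R192H table overlapped, and SCD wildtype replicate 2 was the highest mouse.

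Nidogen 1 and perlecan were set by single high mice. *Nid1* stood at 4.75, 21.7 and 7.77 CPM in wildtype and 7.12, 7.29 and 16.1 in R192H on SCD, and 12.9, 5.94 and 6.93 in wildtype and 10.1, 8.1 and 7 in R192H on HFD, and at 16.4 and 20.3 CPM in controls and 14.5, 20.1 and 20 in βiKO mice. Perlecan (*Hspg2*) stood at 8.76, 40.7 and 16.9 CPM in wildtype and 12.9, 10.6 and 33.7 in R192H on SCD, and 36.3, 10.2 and 8.85 in wildtype and 13.6, 11.2 and 13.1 in R192H on HFD, and at 24.5 and 21.8 CPM in controls and 19.4, 19.3 and 15.2 in βiKO mice. A single mouse of each of 3 groups, SCD wildtype replicate 2, SCD R192H replicate 3 and HFD wildtype replicate 1, was over 2 times the others for *Hspg2*.

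*Nid2*, the other nidogen, did not follow *Nid1*. It stood at 7.18, 5.98 and 5.48 CPM in wildtype and 5.11, 5.95 and 5.8 in R192H on SCD, and 7.49, 8.02 and 6.93 in wildtype and 7.12, 8.94 and 6.35 in R192H on HFD, and at 6.24 and 6.3 CPM in controls and 7.63, 7.11 and 6.07 in βiKO mice. SCD-fed R192H mice lay under HFD-fed R192H mice without overlap. Agrin (*Agrn*) stood at 6.47, 11.8 and 7.85 CPM in wildtype and 7.73, 7.16 and 11.2 in R192H on SCD, and 6.61, 6 and 4.84 in wildtype and 6.51, 6.71 and 6.42 in R192H on HFD, and at 14.8 and 13.2 CPM in controls and 12.5, 13 and 12.7 in βiKO mice. Each HFD-fed R192H mouse lay under each SCD-fed R192H mouse for *Agrn*, and each βiKO mouse under the controls by a small margin.

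The multiplexins *Col15a1* and *Col18a1* encode basement membrane collagens that carry endostatin-like ends. *Col15a1* stood at 5.42, 17.2 and 7.97 CPM in wildtype and 6.61, 6.11 and 14.3 in R192H on SCD, and 8.1, 5.73 and 6.72 in wildtype and 7.62, 8.9 and 5.58 in R192H on HFD, and at 9.92 and 8.72 CPM in controls and 7.7, 10.6 and 9.56 in βiKO mice. *Col18a1* stood at 0.91, 5.34 and 1.86 CPM in wildtype and 1.53, 1.68 and 3.74 in R192H on SCD, and 1.92, 1.74 and 2.32 in wildtype and 2.47, 3.65 and 2.38 in R192H on HFD, and at 2.86 and 2.45 CPM in controls and 4.16, 4.32 and 4.44 in βiKO mice. All HFD-fed R192H mice lay above the HFD-fed wildtype mice for *Col18a1*, and all βiKO mice above the controls.

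Type I, III and V collagen chains had lower values after HFD in wildtype mice, and SCD wildtype replicate 2 was the highest mouse of the table for each. *Col27a1*, another fibrillar chain, was not lower after HFD (log2 fold change 0.05 ± 0.28). *Col1a1*, the α1 chain of type I collagen, stood at 2.22, 12.8 and 2.61 CPM in wildtype and 2.49, 2.08 and 6.6 in R192H on SCD, and 0.773, 1.43 and 0.833 in wildtype and 0.823, 1.55 and 1.23 in R192H on HFD. Its partner *Col1a2* stood at 6.33, 42.1 and 12 CPM in wildtype and 8.14, 11 and 20.9 in R192H on SCD, and 5.2, 8.39 and 5.7 in wildtype and 5.73, 9.27 and 6.48 in R192H on HFD. *Col3a1*, the highest fibrillar member, stood at 26.4, 106 and 39.7 CPM in wildtype and 34.5, 28.9 and 59.2 in R192H on SCD, and 12.7, 23.1 and 16 in wildtype and 18, 33.3 and 23.8 in R192H on HFD. On HFD, no wildtype mouse reached the level of any SCD-fed wildtype mouse for *Col1a1* and *Col3a1*.

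Type V collagen takes part in starting fibrils. *Col5a1* stood at 1.38, 8.8 and 1.42 CPM in wildtype and 1.53, 1.18 and 4.47 in R192H on SCD, and 0.4, 0.614 and 0.781 in wildtype and 0.358, 1.05 and 1.23 in R192H on HFD, and *Col5a2* at 4.85, 14.8 and 5.77 CPM in wildtype and 3.53, 4.37 and 11.7 in R192H on SCD, and 2.67, 5.29 and 3.31 in wildtype and 4.62, 7.72 and 5.83 in R192H on HFD. Their levels in the βiKO table overlapped between groups, as did those of type I and III chains. *Col1a1* stood at 3.16 and 2.72 CPM in controls and 2.18, 3.39 and 3.03 in βiKO mice, *Col1a2* at 14.3 and 13.5 CPM in controls and 12.2, 16.4 and 19.9 in βiKO mice, and *Col3a1* at 37.6 and 30.1 CPM in controls and 29.3, 47.9 and 53.2 in βiKO mice. *Col5a1* stood at 2.71 and 2.49 CPM in controls and 2.11, 3.54 and 2.97 in βiKO mice, and *Col5a2* at 7.43 and 5.11 CPM in controls and 6.93, 11.4 and 11.2 in βiKO mice. Only the control replicate with the lower *Col5a2* lay under every βiKO mouse. The ratio of *Col1a1* to *Col1a2* per kb ran from 0.272 to 0.664 in the R192H table.

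Type VI collagen forms beaded filaments at the rim of basement membranes, from α1, α2 and 1 longer chain such as α3, α5 or α6. *Col6a1* stood at 5.15, 19.1 and 6.47 CPM in wildtype and 6.23, 5.4 and 11 in R192H on SCD, and 2.13, 2.63 and 3.85 in wildtype and 4.19, 6.17 and 4.69 in R192H on HFD. *Col6a2* stood at 1.79, 11.8 and 3.09 CPM in wildtype and 2.87, 1.76 and 6.83 in R192H on SCD, and 2.27, 0.819 and 1.43 in wildtype and 2.22, 3.48 and 2.25 in R192H on HFD. *Col6a1* was lower in each HFD-fed wildtype mouse than in any SCD-fed one, whereas *Col6a2* overlapped by 1 mouse. In the βiKO table, *Col6a1* stood at 7.03 and 7.29 CPM in controls and 6.17, 12.6 and 12.9 in βiKO mice and *Col6a2* at 5.5 and 4.14 CPM in controls and 4.06, 5.38 and 5.79 in βiKO mice, and the groups overlapped for both.

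*Col6a3* and *Col6a6* encode long chains of type VI collagen. *Col6a3* (chr1:90765923-90843971, minus strand) stood at 12.7, 22.2 and 14 CPM in wildtype and 17, 16.8 and 18.6 in R192H on SCD, and 13.3, 8.22 and 10.5 in wildtype and 7.37, 6.29 and 6.79 in R192H on HFD. The 3 HFD-fed R192H mice were the lowest of the table, under every HFD-fed wildtype mouse and under every SCD-fed R192H mouse. In the βiKO table the groups overlapped, at 9.78 and 7.76 CPM in controls and 7.87, 8.65 and 7.42 in βiKO mice.

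*Col6a6* (chr9:105687809-105828160, minus strand) ranked within the top 5 members per kb in every group, and the second in controls at 7.88 ± 0.386 CPM per kb (SD, n = 2). It stood at 32.3, 27 and 38.8 CPM in wildtype and 27.2, 30 and 33.8 in R192H on SCD, and 52.3, 26.4 and 36.8 in wildtype and 24.7, 20.1 and 17.1 in R192H on HFD. In the βiKO table it stood at 74.7 and 69.7 CPM in controls and 48, 43.1 and 46.9 in βiKO mice. In both tables the *Pax4* mutant mice on HFD lay under every HFD-fed wildtype or control mouse. On SCD the genotypes overlapped. *Col6a5*, beside it on chromosome 9, was low, at 0.809, 2.23 and 0.507 CPM in wildtype and 0.686, 0.632 and 1.03 in R192H on SCD, and 0.267, 0.171 and 0.0521 in wildtype and 0.286, 0.21 and 0.524 in R192H on HFD, and at 0.632 and 0.729 CPM in controls and 0.624, 1.42 and 1.23 in βiKO mice.

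**Figure D2:**
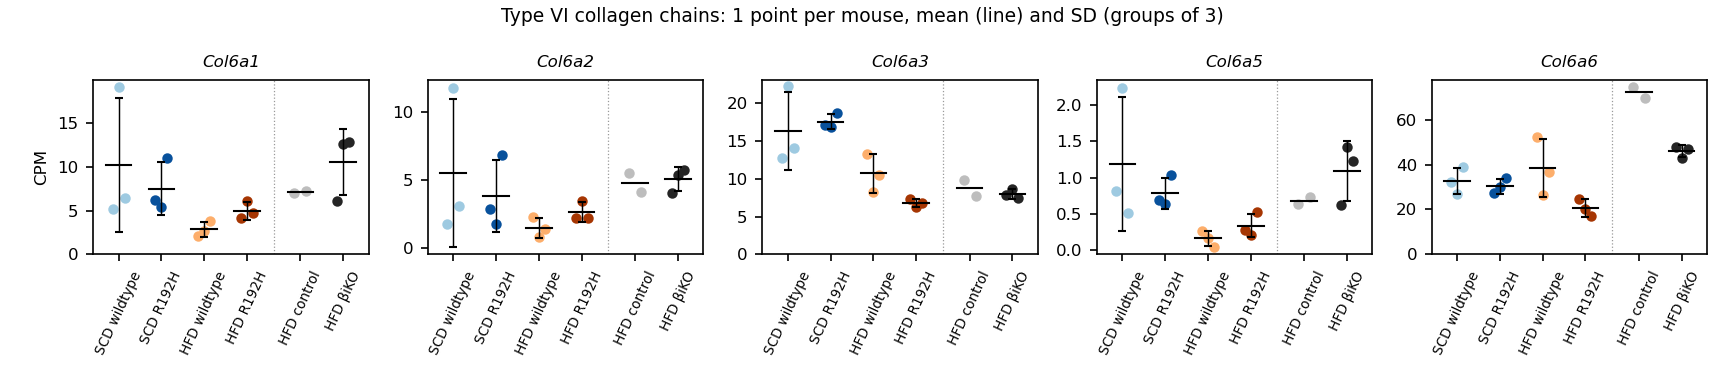
CPM of 5 type VI collagen chains in each mouse, with group means (lines) and SD (bars, groups of 3); the dotted line parts the tables, which were normalized separately. Col6a6 is lower in HFD-fed R192H mice (17.1 to 24.7) than in HFD-fed wildtype mice (26.4 to 52.3) and lower in βiKO mice (43.1 to 48) than in controls (69.7 to 74.7), and within its table Col6a3 is lowest in HFD-fed R192H mice.

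**Figure D3:**
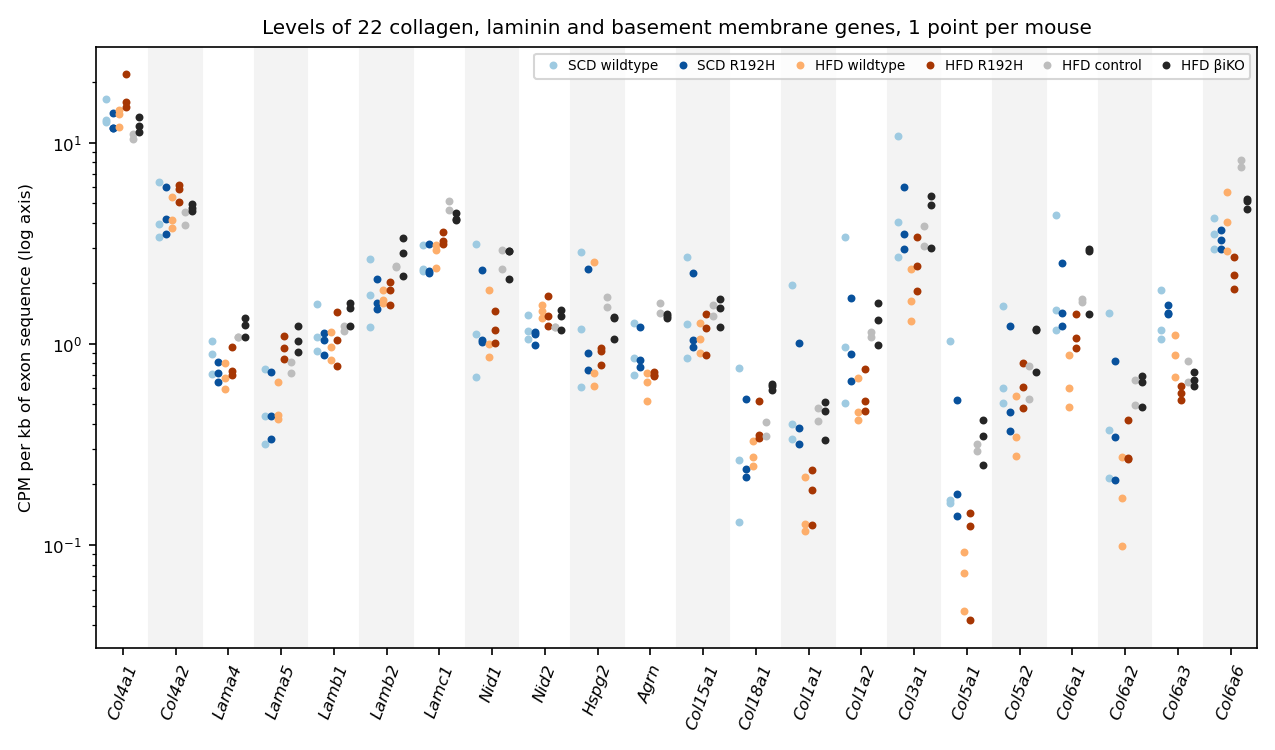
CPM per kb of exon sequence (log axis) of 22 members, 1 point per mouse, coloured by group. Col4a1 is the highest in every group, and the points of fibrillar chains such as Col1a1 and Col5a1 spread far more among the SCD-fed mice than those of Col4a1, Lamc1 or Nid2.

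With R192H on HFD, no member was called, a call being an adjusted p under 0.05 and a log2 fold change over 0.5 in size. Of all genes, 2.28% were called. *Col6a6* came nearest and was 1.87-fold lower (log2 fold change -0.90 ± 0.22 (SE), edgeR adjusted p = 0.0538). *Lama5*, the laminin α5 chain, was 1.9-fold higher (log2 fold change 0.93 ± 0.32 (SE), edgeR adjusted p = 0.158), and *Col4a1* 1.31-fold higher (log2 fold change 0.39 ± 0.16 (SE), edgeR adjusted p = 0.248), neither past the threshold.

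At an unadjusted p under 0.05, 3 of 50 members were higher (*Lama5*, *Col16a1* and *Col4a1*) against 8.91% of all genes, and 2 were lower (*Col6a6* and *Col6a3*) against 6.98%. Both shares lay under the background. *Col16a1*, a fibril-associated chain, stood at 7.34, 7.13 and 4.97 CPM in wildtype and 4.35, 4.87 and 6.87 in R192H on SCD, and 3.12, 6.86 and 7.03 in wildtype and 7.76, 15.3 and 8.54 in R192H on HFD (log2 fold change 0.89 ± 0.33 (SE), edgeR adjusted p = 0.186). *Col6a3* was 1.56-fold lower (log2 fold change -0.65 ± 0.22 (SE), edgeR adjusted p = 0.142). Over the alternatives tried, the log2 fold change ran from 0.53 to 1.08 for *Col16a1* and from 0.2 to 0.49 for *Col4a1*. The median log2 fold change of the tested members was 0.19, beside -0.01 for all genes.

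By role, 4 of 6 type IV chains, 8 of 9 fibrillar chains and each of 5 fibril-associated chains had higher values in HFD-fed R192H mice, and 3 of 4 nidogens and proteoglycans had lower ones. These counts are directions of values only, since none passed the test. As log2 fold change ± SE, *Col4a2* stood at 0.37 ± 0.24, *Lamc1* at 0.25 ± 0.17, *Col18a1* at 0.50 ± 0.52, *Lama4* at 0.20 ± 0.19, *Lamb2* at 0.09 ± 0.24, *Nid2* at 0.00 ± 0.17 and *Nid1* at -0.03 ± 0.49.

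Markers of several cell types moved with this comparison. All 14 tested acinar markers had higher values in HFD-fed R192H mice, summing to 31200 to 86900 CPM against 14300 to 21300 in HFD-fed wildtype mice, and Cela3b and Prss2 were called. Of 8 duct markers, 6 had higher values, at 127 to 135 CPM in sum against 80.9 to 99, without overlap, and none was called. Most of that sum was Krt7 (98, 89.3 and 85.8 CPM against 62, 68.8 and 79) and Spp1 (20.7, 41.9 and 37 against 13.7, 19 and 17). Krt19, Sox9 and Cftr were low, and their groups overlapped. β cell markers summed to 99000 to 110000 CPM against 64900 to 93300, without overlap, with *Slc2a2* called lower, Mafa, Nkx6-1 and Ucn3 lower and Iapp higher at an unadjusted p under 0.05. Msln, the only tested mesothelial marker, had a lower value. Of 12 mesenchymal markers 11 had higher values, at 128 to 185 CPM in sum against 104 to 138. Of 9 endothelial markers 7 did, at 219 to 243 against 200 to 248. No marker of these 2 lists had an unadjusted p under 0.05. The part of all these cells in the members' values was not tested.

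Between βiKO and control mice, too, no member was called, against 0.0893% of all genes. *Col6a6* had the lowest p of any member, at rank 22 by p among the 20167 genes tested. It was 1.57-fold lower (log2 fold change -0.65 ± 0.08 (SE), edgeR adjusted p = 0.0604), without overlap. *Col18a1* was 1.62-fold higher (log2 fold change 0.70 ± 0.20 (SE), edgeR adjusted p = 0.271) and *Lama5* 1.38-fold higher (log2 fold change 0.46 ± 0.16 (SE), edgeR adjusted p = 0.315).

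At an unadjusted p under 0.05, 5 of 51 members were higher (*Col18a1*, *Lama5*, *Lama3*, *Col5a2* and *Col14a1*) against 6.23% of all genes, and 3 were lower, *Col6a6* and *Hspg2* among them, against 6.62%. *Hspg2* was 1.29-fold lower (log2 fold change -0.37 ± 0.14 (SE), edgeR adjusted p = 0.33). All 4 tested laminin α chains had higher values, while *Lamc1* stood at -0.20 ± 0.09 on the log2 scale. The median over members was 0.15, beside 0.01 for all genes.

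All 9 endothelial markers had higher values in βiKO mice, at 341 to 397 CPM in sum against 322 in both controls, and 10 of 12 mesenchymal markers did, at 284 to 394 against 256 to 284. Duct markers summed to 259 to 320 CPM against 208 to 211, with 3 of 8 higher, and macrophage markers to 65.1 to 125 against 62 to 77.3, with 5 of 6 higher. The duct sum rose through Spp1 (103, 135 and 171 CPM against 64.3 and 52.6), while the groups overlapped for Krt7. Of 8 β cell markers, Mafa, Nkx6-1, *Slc2a2* and Ucn3 were lower and Iapp higher at an unadjusted p under 0.05. None of these markers was called, and their part in the members' values was not tested. Acinar markers ranged from 14600 to 71400 CPM in βiKO mice and from 21000 to 92000 in controls.

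*Col6a6* was thus the member with the lowest p in each *Pax4* comparison on HFD, in tables that share no mouse. Its adjusted p missed 0.05 in both by edgeR with the filter used here. With no filter on low counts, or with at least 10 counts in every mouse, edgeR called it in both, and with the replicate block in βiKO. DESeq2 called it in both, at DESeq2 adjusted p = 0.00409 for R192H, where it called 5.20% of all genes, and 2.35e-07 for βiKO, where it called 1.22%. Without HFD wildtype replicate 2, edgeR called it for R192H too, at adjusted p = 0.0159. Without HFD wildtype replicate 1, which had its highest value of the group, the log2 fold change was -0.62 and the edgeR adjusted p 0.192. Over all alternatives tried, DESeq2 among them, the log2 fold change kept its sign and ran from -1.11 to -0.62 for R192H, with adjusted p from 7.43e-06 to 0.192, and from -0.7 to -0.6 for βiKO, with adjusted p from 2.35e-07 to 0.61.

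**Figure D4:**
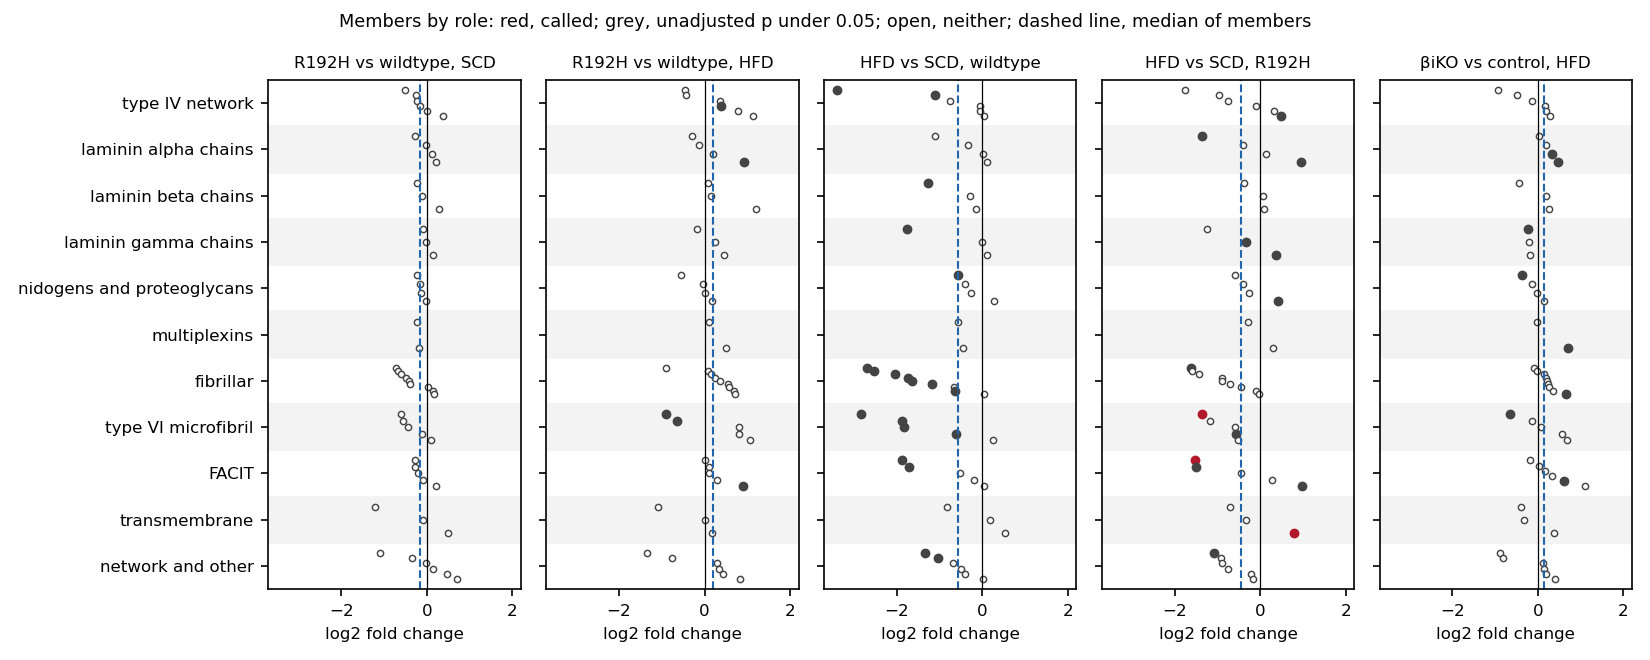
Log2 fold change (x axis) of each tested member in 5 comparisons, by role (y axis); red points were called by edgeR, grey points had an unadjusted p under 0.05, open points neither, and the dashed line is the median over members. The wildtype diet panel holds the most grey points, all to the left, while the only red points are Col6a3, Col12a1 and Col13a1 in the R192H diet panel.

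Between diets, R192H mice gave the only calls among members. Of 50 tested members, 3 were called, against 15.7% of all genes. *Col6a3* was 2.56-fold lower on HFD (log2 fold change -1.36 ± 0.22 (SE), edgeR adjusted p = 0.00141). *Col12a1*, a fibril-associated chain of dense connective tissue, was 2.89-fold lower (log2 fold change -1.53 ± 0.49 (SE), edgeR adjusted p = 0.048). *Col13a1*, a collagen that spans the cell membrane, was 1.75-fold higher (log2 fold change 0.80 ± 0.25 (SE), edgeR adjusted p = 0.0396).

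*Col12a1* stood at 1.35, 4.43 and 1.59 CPM in wildtype and 2.54, 1.34 and 3.09 in R192H on SCD, and 0.826, 0.512 and 0.885 in wildtype and 0.751, 0.546 and 1.08 in R192H on HFD, and at 2.56 and 2.82 CPM in controls and 2.53, 2.51 and 2.05 in βiKO mice. In the R192H table, the HFD-fed mice of both genotypes lay under all SCD-fed mice. *Col13a1* stood at 5.15, 4 and 6.18 CPM in wildtype and 4.14, 6.21 and 3.97 in R192H on SCD, and 5.49, 7.54 and 9.04 in wildtype and 8.02, 9.99 and 7.09 in R192H on HFD, and at 5.76 and 6.8 CPM in controls and 8.7, 7.44 and 8.18 in βiKO mice. Each HFD-fed R192H mouse lay above each SCD-fed R192H mouse, the margin being small.

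At an unadjusted p under 0.05, 6 members were higher against 17.0% of all genes, and 8 were lower against 15.4%. The higher members were *Col13a1*, *Col4a1*, *Col16a1*, *Lama5*, *Nid2* and *Lamc1*. *Col4a1* (log2 fold change 0.49 ± 0.16 (SE), edgeR adjusted p = 0.0531), *Lama5* (log2 fold change 0.95 ± 0.32 (SE), edgeR adjusted p = 0.0583) and *Lamc1* (log2 fold change 0.38 ± 0.17 (SE), edgeR adjusted p = 0.128) missed the threshold. The lower members included *Col6a3*, *Col12a1*, *Col14a1*, *Col28a1*, *Lama2*, *Col1a1* and *Col6a6*, and all 9 tested fibrillar chains had lower values. The median over members was -0.45, beside -0.06 for all genes.

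*Col6a3* was called under all 13 alternatives, with log2 fold changes from -1.41 to -1.3. *Col12a1* and *Col13a1* lost their calls when any HFD-fed R192H mouse was left out, and also without SCD R192H replicate 1. The count of called members was then 1, against 8.38% to 11.2% of all genes. They also lost their calls without SCD R192H replicate 3, when *Col6a3* and *Lama5* were called, against 9.8% of all genes. With the pair of SCD mice high in mesenchymal markers left out, an alternative chosen after the data were seen, 5 members were called against 11.6% of all genes. *Col4a1*, *Col4a2*, *Lama5* and *Lamc1* were then higher and *Col6a3* lower. *Plvap*, a marker of fenestrated endothelium, was called higher on HFD in R192H mice (log2 fold change 0.65 ± 0.18 (SE), edgeR adjusted p = 0.0228), and 6 of 9 endothelial markers had higher values, at 219 to 243 CPM in sum on HFD and 208 to 242 on SCD. Of 14 acinar markers 13 were called higher, as were the duct marker Krt7 and the β cell markers *Ins1*, *Ins2* and Iapp, while the β cell marker *Slc2a2* was called lower. β cell markers summed to 99000 to 110000 CPM on HFD and 49900 to 52100 on SCD. Of 12 mesenchymal markers 7 had lower values, *Dcn* and *Pdgfra* at an unadjusted p under 0.05, and they summed to 128 to 185 CPM on HFD and 116 to 184 on SCD. The part of these cells was not tested. DESeq2 called 6 members here against 18.8% of all genes.

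**Figure D5:**
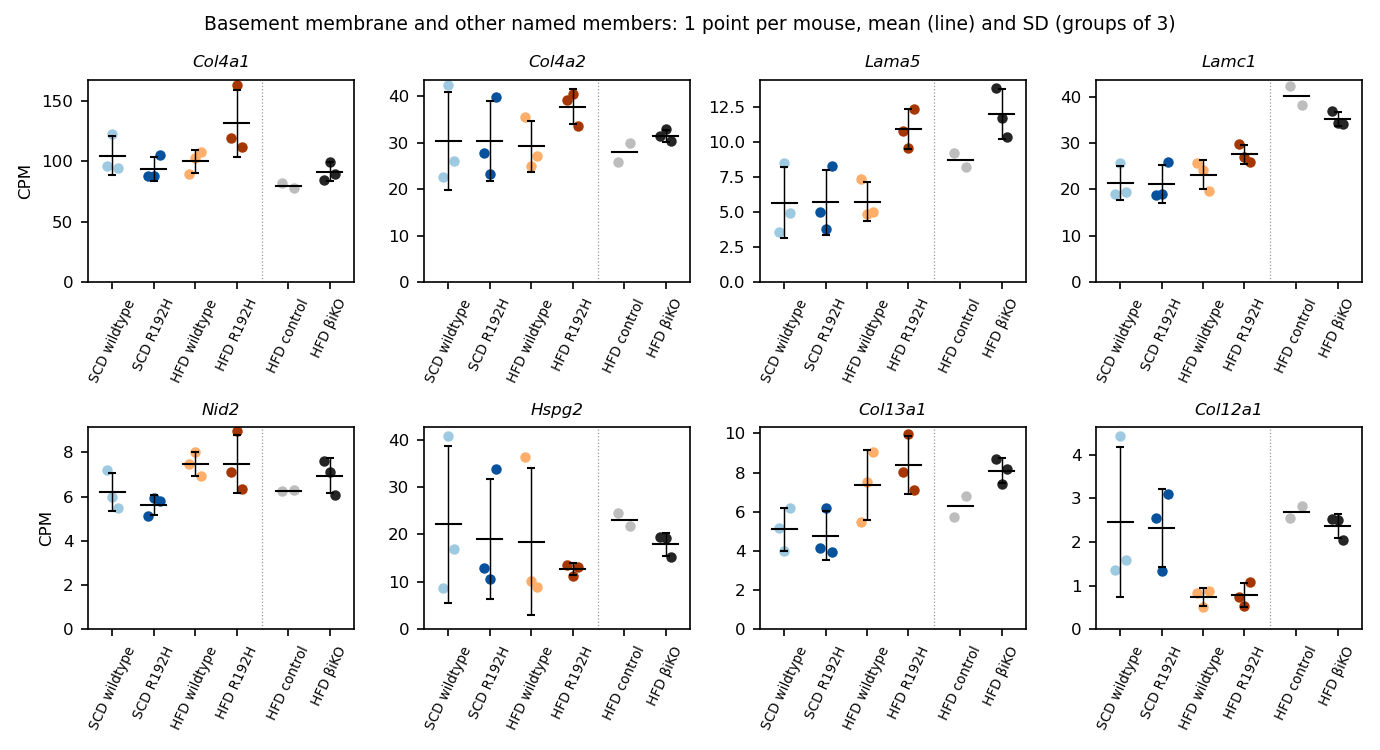
CPM of 8 members in each mouse, with group means (lines) and SD (bars, groups of 3); the dotted line parts the tables, which were normalized separately. Lama5 (9.57 to 12.4) and Col4a1 (112 to 163) are higher in each HFD-fed R192H mouse than in any HFD-fed wildtype mouse, Col12a1 is low in all HFD-fed mice of the R192H table, and Hspg2 is set by a single high mouse in 3 groups.

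Wildtype mice had lower values of most collagens on HFD, yet no member was called, against 0.371% of all genes. At an unadjusted p under 0.05, 20 of 50 members (8.37% of all genes) were lower and 0 were higher (6.86% of all genes). They held 7 of 9 fibrillar chains, 4 of 5 type VI chains and 2 of 5 fibril-associated chains and 2 of 6 type IV chains. The median over members was -0.58, beside 0.01 for all genes.

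None of the following passed the threshold. *Col6a1* was 3.56-fold lower (log2 fold change -1.83 ± 0.45 (SE), edgeR adjusted p = 0.0915), *Col6a5* 7.13-fold lower (log2 fold change -2.83 ± 0.70 (SE), edgeR adjusted p = 0.0946), *Col1a1* 5.83-fold lower (log2 fold change -2.54 ± 0.65 (SE), edgeR adjusted p = 0.0996) and *Col3a1* 3.33-fold lower (log2 fold change -1.74 ± 0.45 (SE), edgeR adjusted p = 0.0998). Chains of the basement membrane sheets were divided. *Col4a1* stood at -0.06 ± 0.16, *Col4a2* at -0.05 ± 0.24, *Lamc1* at 0.11 ± 0.17 and *Lama5* at 0.01 ± 0.32 on the log2 scale, whereas *Lamc3* stood at -1.77 ± 0.71, *Lamb3* at -1.28 ± 0.59, *Col4a4* at -1.10 ± 0.49 and *Lama2* at -1.10 ± 0.53. *Col4a6* had the lowest value of any member (-3.40 ± 1.04), at no more than 0.08 CPM in any HFD-fed wildtype mouse. The lowest p among members with higher values belonged to *Col13a1* (log2 fold change 0.52 ± 0.24 (SE), edgeR adjusted p = 0.33) and *Nid2* (log2 fold change 0.27 ± 0.17 (SE), edgeR adjusted p = 0.483).

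SCD wildtype replicate 2 decided much of these values, and without SCD wildtype replicate 1 *Col3a1* and *Col6a1* were called lower, against 0.613% of all genes called. Without replicate 2 the median over members was -0.12 and no member was called, and the log2 fold change was -1.26 for *Col1a1*, -0.94 for *Col3a1*, -1.02 for *Col6a1* and -1.98 for *Col6a5*. Mesenchymal markers moved the same way, with lower values for 11 of 12 and sums of 104 to 138 CPM on HFD against 111 to 294 on SCD, and *Dcn*, *Des*, *Lum*, *Pdgfra* and *Vim* had an unadjusted p under 0.05. Macrophage markers were lower too, at 22.5 to 25.2 CPM in sum against 56.1 to 103, and *Ptprc* and *Lyz2* were called. Of 8 β cell markers, 7 had higher values, *Ins1*, *Ins2* and Ucn3 at an unadjusted p under 0.05, with sums of 64900 to 93300 CPM on HFD and 44400 to 58800 on SCD. The part of these cells was not tested. DESeq2 called 8 members lower (*Col1a1*, *Col3a1*, *Col5a1*, *Col5a3*, *Col6a1*, *Col6a2*, *Col6a5* and *Col12a1*) against 3.06% of all genes.

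On SCD no difference between the genotypes passed the test in any member. No member and no gene was called (0% of all genes) by edgeR, and DESeq2 called 0 members and 0.0994% of all genes. At an unadjusted p under 0.05 there were 0 higher members (1.10% of all genes) and 0 lower ones (2.19%). Among members with lower values, the lowest p were those of *Col23a1* (-1.20 ± 0.74) and *Lama4* (-0.28 ± 0.19), and among those with higher values *Col28a1* (0.47 ± 0.41) and *Col7a1* (0.70 ± 0.68), as log2 fold change ± SE, each with an edgeR adjusted p of 1. The median over members was -0.15, and it turned to 0.39 without SCD wildtype replicate 2. Of 12 mesenchymal markers 11 had lower values in R192H, *Des* and *Vim* at an unadjusted p under 0.05. All 6 macrophage markers did, 3 of them at an unadjusted p under 0.05, with sums of 27.3 to 32.2 CPM against 56.1 to 103. Endothelial markers were divided, with 4 of 9 higher. The part of these cells was not tested.

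*Col23a1*, *Col28a1* and *Col7a1* were low members. *Col23a1* stood at 0.202, 1.26 and 0.266 CPM in wildtype and 0.178, 0.237 and 0.344 in R192H on SCD, and 0.347, 0.375 and 0.26 in wildtype and 0.215, 0.0839 and 0.154 in R192H on HFD, and at 0.966 and 0.994 CPM in controls and 0.832, 0.665 and 0.736 in βiKO mice. *Col28a1* stood at 0.741, 2.33 and 1.59 CPM in wildtype and 2.16, 1.76 and 2.6 in R192H on SCD, and 0.8, 0.819 and 0.651 in wildtype and 0.716, 0.839 and 1.51 in R192H on HFD, and at 2.82 and 2.32 CPM in controls and 2.57, 2.96 and 3.19 in βiKO mice. *Col7a1*, the anchoring fibril collagen, stood at 0.606, 2.63 and 1.42 CPM in wildtype and 1.47, 1.58 and 4.62 in R192H on SCD, and 0.96, 0.955 and 1.41 in wildtype and 2.86, 0.881 and 0.339 in R192H on HFD, and at 3.57 and 0.729 CPM in controls and 1.66, 1.12 and 0.705 in βiKO mice.

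The difference between the genotype effects on HFD and on SCD was tested by an interaction term. No member passed, against 0.131% of all genes. At an unadjusted p under 0.05, *Col16a1* and *Col4a1* had a higher term (6.84% of all genes) and *Col6a6* and *Col6a3* a lower one (4.38%). None held after adjustment, neither *Col6a6* (log2 fold change -0.79 ± 0.31 (SE), edgeR adjusted p = 0.355) and *Col6a3* (log2 fold change -0.74 ± 0.30 (SE), edgeR adjusted p = 0.366) nor *Col16a1* (log2 fold change 1.17 ± 0.46 (SE), edgeR adjusted p = 0.356) and *Col4a1* (log2 fold change 0.55 ± 0.23 (SE), edgeR adjusted p = 0.386). The interaction's median over members was 0.25, and -0.2 without SCD wildtype replicate 2. All 12 mesenchymal, 14 tested acinar and 6 macrophage markers had a higher term, 1, 13 and 2 of them at an unadjusted p under 0.05. Of 8 β cell markers, 4 had a higher term and 4 a lower one. None of these markers was called, and the part of these cells was not tested. With no filter on low counts, edgeR called the term for *Col3a1*, *Col6a1*, *Col6a6* and *Col16a1*. With the filter used here, no member was shown to respond to R192H differently on HFD and on SCD.

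Several enzymes that fold and modify collagen were called on HFD in R192H mice. Of 29 tested genes for collagen folding, crosslinking and secretion, 2 were called higher in HFD-fed R192H mice than in HFD-fed wildtype mice, against 2.28% of all genes called in either direction. They were *Ppib*, a prolyl isomerase (log2 fold change 0.98 ± 0.18 (SE), edgeR adjusted p = 0.0138), and *P4hb*, a disulfide isomerase that is also part of prolyl 4-hydroxylase (log2 fold change 0.86 ± 0.18 (SE), edgeR adjusted p = 0.0288). Both also act on other secreted proteins. Between diets in R192H mice, 10 of the 29 were called higher and *Adamts2*, the procollagen N-peptidase, was called lower (log2 fold change -1.88 ± 0.57 (SE), edgeR adjusted p = 0.0367), against 15.7% of all genes called in either direction. The higher ones included the hydroxylases *P4ha2* (log2 fold change 1.14 ± 0.19 (SE), edgeR adjusted p = 0.00171) and *Plod3* (log2 fold change 0.77 ± 0.13 (SE), edgeR adjusted p = 0.00178), and *P3h4* of the prolyl 3-hydroxylase family (log2 fold change 1.14 ± 0.17 (SE), edgeR adjusted p = 0.000975). None of the 29 was called in the other comparisons. The acinar markers called higher in the same comparison had sums of 31200 to 86900 CPM on HFD and 11300 to 17300 on SCD, and their part in these values was not tested.

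Of 14 tested matrix receptors and 13 tested proteases and inhibitors, none was called in any comparison. Among 27 other matrix glycoproteins, 4 were called between diets in R192H mice, a share near the 15.7% of all genes, and 0 elsewhere. *Frem2* (log2 fold change 1.53 ± 0.33 (SE), edgeR adjusted p = 0.00717) and *Thbs1* (log2 fold change 0.89 ± 0.23 (SE), edgeR adjusted p = 0.0194) were higher, and *Fbln1* (log2 fold change -2.81 ± 0.87 (SE), edgeR adjusted p = 0.0406) and *Egflam* (log2 fold change -0.90 ± 0.22 (SE), edgeR adjusted p = 0.0149) were lower.

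*Col4a3bp*, which only shares the name, stood at 41.4, 69.2 and 58.9 CPM in wildtype and 54.7, 59.7 and 56.3 in R192H on SCD, and 56.2, 45.9 and 51.6 in wildtype and 34, 35.9 and 39 in R192H on HFD. It was called lower on HFD in R192H mice (log2 fold change -0.65 ± 0.16 (SE), edgeR adjusted p = 0.0152) and lay under the HFD-fed wildtype mice without overlap (log2 fold change -0.50 ± 0.16 (SE), edgeR adjusted p = 0.128). The members that were not tested, *Col2a1*, *Col9a1*, *Col9a3*, *Col17a1*, *Col22a1*, *Col24a1*, *Col6a4* and *Lama1* in both tables and *Col19a1* in the R192H table, had at most 0.483 CPM in any mouse of a table where they were not tested.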

How the data were processed

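RNA from isolated islets of 17 mice in 6 groups was sequenced after total RNA library preparation. Per the labels and the methods, the authors aligned reads to mm10 with STAR 2.7.1 and estimated gene levels with RSEM 1.3.3, and they deposited estimated counts per gene (expected counts), 1 table per experiment. These were rounded to whole numbers here. The annotation release and the strand setting of the counting are not given in the sources used here. Gene symbols, coordinates and exon lengths came from a GRCm38 annotation, and promoter windows from RefSeq.

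Each table was fitted on its own over all genes with edgeR 4.0.16 (R 4.3.3), with TMM scaling, filterByExpr at a minimum count of 10, 1 coefficient per group and the quasi-likelihood F test, with Benjamini-Hochberg adjustment over all genes tested. Calls needed an adjusted p under 0.05 and a log2 fold change over 0.5 in size. The standard error was derived from the fold change and F. Totals ran from 24268157 to 42679645 counts in the R192H table and from 28618835 to 31887537 in the βiKO table, and 3 counts equalled 0.0724 to 0.126 CPM. Alternatives were another scaling (RLE), other filters, DESeq2 1.42.0, a replicate block, the compared groups alone and each mouse left out. The scripts were tested on simulated data, where only genes with a mean over 100 counts were changed. Of 100 changes of log2 size 1, 60 were called for R192H on HFD and 78 for βiKO. Of 100 changes of log2 size 2, 98 were called in each. Recovery in genes of lower counts was not tested.

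The members and gene lists were chosen with earlier results of these data known. Values in every mouse were given for called members, for a fixed list of core chains, and for the members with the lowest p in each direction of each comparison. Not every member is reported by name here.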

Additional observations from a re-analysis of the deposited data

How the results depend on the processing

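Counts of called members moved with the filter and the tool. Without a filter on low counts, 6 members were called for R192H on HFD, 4 for the interaction, 13 for diet in wildtype mice, 13 for diet in R192H mice and 3 for βiKO, against 3.21%, 1.78%, 2.32%, 9.58% and 1.8% of all genes. With at least 10 counts in every mouse, 1 was called for R192H on HFD (Col6a6), 4 of 40 for diet in R192H and 1 for βiKO (Col6a6), against 4.61%, 21.2% and 0.11% of all genes. DESeq2 called 1 for R192H on HFD, 8 for diet in wildtype, 6 for diet in R192H and 1 for βiKO, and over all genes it called 994, 584, 3602 and 247 against 437, 71, 2996 and 18 by edgeR, with 343 against 25 for the interaction and 19 against 0 on SCD. With the compared groups alone, 9 of 46 were called for diet in R192H (19.6%), against 21% of all genes. Leaving out both SCD mice high in mesenchymal markers, chosen after seeing the data, gave 5 for diet in R192H and a median of -0.12 for diet in wildtype. The causes were not tested.

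Leaving out 1 mouse at a time gave 0 to 1 called members for R192H on HFD, 0 to 2 for diet in wildtype and 1 to 3 for diet in R192H. Of all genes, 0.458% to 2.45%, 0.0246% to 0.62% and 8.38% to 11.2% were called in those fits. The median log2 fold change over members ran from -0.36 to 0.39 for R192H on SCD, from -0.2 to 0.49 for the interaction and from -0.84 to -0.12 for diet in wildtype, with the end at SCD wildtype replicate 2 left out in each. Where a group of 2 lost a mouse, the lone control was assumed to vary like the other group.

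With a replicate block, 1 member was called for diet in R192H and 1 for βiKO, against 2347 (12.3%) and 88 (0.436%) of all genes. No member was called for R192H on HFD or diet in wildtype, against 147 (0.768%) and 22 (0.115%) of all genes. No pairing by replicate number was seen, as deviations of mice with the same number correlated from -0.296 to 0.193 and passed 0.1 in 5 of 20 pairs. With 2 or 3 mice per group and single libraries that stand apart, such correlations cannot exclude a pairing. Over the alternatives, the members called or nearest to a call kept their side of the threshold 154 times, gained a call 32 times and lost one 17 times, with 0 changes of sign. These were Col6a6 in both Pax4 comparisons on HFD, Col1a1, Col3a1, Col6a1 and Col6a5 for diet in wildtype, and Col4a1, Col6a3, Col12a1, Col13a1, Col14a1, Col16a1, Col28a1, Lama2, Lama5 and Col4a3bp for diet in R192H. Members far from a call did change sign, such as Col1a1 for R192H on SCD (-1.36 to 0.61 on the log2 scale) and Col18a1 for diet in wildtype (-0.84 to 0.51).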
